A study of Mus musculus with 21 samples.

Results

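Murine leukaemia virus type and VL30 elements are mouse retroelements with long terminal repeats (LTRs), and 7 of the 1217 repeat names counted in this study belong to them. They were taken by name alone, as the repeat names that begin with RLTR4_, RLTR6, MuRRS or MuLV. Male germ cells carrying an Oct4-GFP reporter were sorted by green fluorescence from the testes of offspring of Tex15+/- parents on a mixed strain background. Tex15-/- (KO) and Tex15+/- (HT) cells were sequenced on embryonic day 16.5 (E16.5), on embryonic day 18.5 (E18.5) and shortly after birth (D2.5), and Tex15 wild-type cells (WT) at the last of these ages only. Each of the 7 groups held 3 biological replicates. D2.5 follows the sample titles; the text on the design speaks of day 2. The reporter and the mixed background were shared by all groups, and the labels do not say how many animals went into a replicate.

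An endogenous retrovirus of the murine leukaemia virus type consists of an internal region with gag, pol and env genes between a pair of LTRs, which hold the promoter and the polyadenylation signal. The VL30 elements have the same layout but do not encode the viral proteins, and their RNA is known to be packaged into murine leukaemia virus particles. In the mouse embryo such elements are silenced by KRAB zinc finger proteins, of which Zfp809 binds the primer binding site of murine leukaemia virus, and by the corepressor Trim28 with the histone methyltransferase Setdb1. In fetal male germ cells DNA methylation is erased and later restored, and small RNAs bound to PIWI proteins guide methylation to young retroelements. Tex15 is known to be needed for that methylation in mouse.

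Among the 7 names, RLTR4_MM-int and MuLV-int are internal regions of murine leukaemia virus type proviruses and RLTR4_Mm is the matching LTR. MuRRS-int and MuRRS4-int are internal regions of the murine retrovirus-related sequences, which are defective relatives of these viruses. RLTR6-int and RLTR6_Mm are an internal region and an LTR of the VL30 type. All 7 names passed the filter on low counts at every age. A further name, MMVL30-int, is of the VL30 type and was not taken by the rule; its values are given beside the others.

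Each library held between 16661750 and 23353300 counts, of which repeat names took 41.9% to 69.4%. The 7 names together held 8586 to 43314 reads per library. Levels are given as counts per 1000000 scaled gene reads (CPM), so that 1 read was worth 0.0746 to 0.185 CPM. The values of different names were not divided by their length and are not compared with each other. Tex15 itself was at 3.39 ± 0.436 CPM in KO cells and 976 ± 81.8 CPM in HT cells at E16.5 (SD, n = 3 each), and it was lower in every KO library than in every HT or WT library of its age at E18.5 and D2.5 too. On the first principal component of gene levels at E16.5, which held 78.1% of the variance, HT replicate 1 lay at -109, against -6.66 to 67.0 for the other 5 libraries. At D2.5 KO replicate 3 lay at 105, against -33.8 to 19.4 for the other 8. The same libraries were among the extremes for many of the 7 names, as described below.

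At E18.5 all 7 names rose in KO cells relative to HT cells. The changes ran between log2 fold changes of 0.83 for MuLV-int and 1.78 for MuRRS-int, or 1.77-fold and 3.44-fold. Of the 1125 repeat names tested at this age, 9.87% rose (edgeR quasi-likelihood test, Benjamini-Hochberg adjusted p under 0.05), and the median log2 fold change of the 7 names was 1.35, against 0.18 over all names. In all 7 names every KO library lay above every HT library, which held for 17.1% of the names tested. Whether more cells held these RNAs or each cell held more cannot be told apart in bulk libraries.

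**Figure D1:**
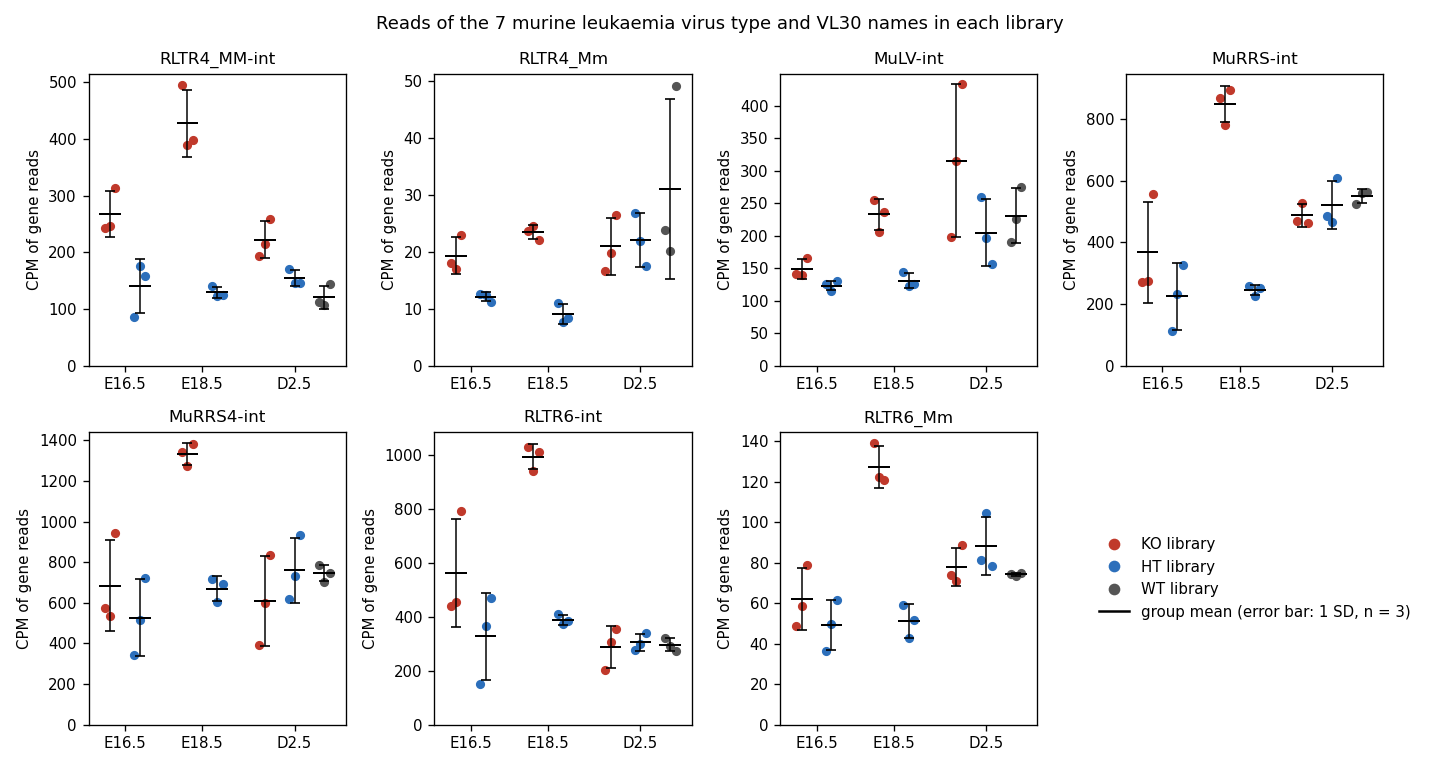
Level of each of the 7 names (vertical axis, CPM) in the KO, HT and WT libraries at each age (horizontal axis). Points are libraries, horizontal lines are group means and error bars 1 SD of 3 libraries. At E18.5 the KO libraries lie above the HT libraries in every panel, while at D2.5 the KO libraries overlap the HT libraries in every panel except that of RLTR4_MM-int.

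Of the murine leukaemia virus type names, RLTR4_MM-int was at 495, 389 and 399 CPM in the KO libraries of E18.5, against 140.2, 123 and 125 CPM in the HT libraries. The lowest KO library was thus far above the highest HT library, and the log2 fold change was 1.72 ± 0.18 (SE; adjusted p = 3.94e-19 by edgeR), the sixth highest of all names. Its LTR, RLTR4_Mm, was at 23.7, 24.5 and 22.1 CPM in KO libraries and at 11.1, 7.69 and 8.34 CPM in HT libraries. This name rested on few reads, 235 to 271 in KO libraries and 103 to 108 in HT libraries, and had a log2 fold change of 1.38 ± 0.23 (SE; adjusted p = 5.65e-08 by edgeR). MuLV-int was at 255, 206 and 237 CPM in KO libraries, against 144, 123 and 126 CPM in HT libraries. Its log2 fold change of 0.83 ± 0.18 (SE; adjusted p = 7.84e-05 by edgeR) was the lowest of the 7. All 3 names had their KO libraries clear of their HT libraries.

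MuRRS-int, an internal region of the retrovirus-related sequences, was at 869, 781 and 895 CPM in KO libraries, against 259, 227 and 251 CPM in HT libraries. The gap between the groups was several times the spread within either, and the log2 fold change of 1.78 ± 0.18 (SE; adjusted p = 3.05e-20 by edgeR) was the fourth highest of all names. MuRRS4-int, the related internal region, was at 1342, 1276 and 1382 CPM in KO libraries and at 716, 603 and 692 CPM in HT libraries. Its groups were also apart, with a log2 fold change of 0.99 ± 0.18 (SE; adjusted p = 1.19e-06 by edgeR).

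The VL30-type names had intermediate fold changes. RLTR6-int was at 1028, 941 and 1011 CPM in KO libraries, against 409, 373 and 383 CPM in HT libraries, with a log2 fold change of 1.35 ± 0.18 (SE; adjusted p = 4.27e-12 by edgeR). Its LTR RLTR6_Mm was at 139, 122 and 121 CPM in KO libraries and at 59.1, 42.7 and 51.6 CPM in HT libraries, with a log2 fold change of 1.31 ± 0.18 (SE; adjusted p = 7.61e-11 by edgeR). The internal region and the LTR thus differed between genotypes by nearly the same factor, 2.55-fold and 2.49-fold. MMVL30-int was at 1417, 1157 and 1403 CPM in KO libraries, against 690.0, 553 and 559.7 CPM in HT libraries, a log2 fold change of 1.14 ± 0.18 (SE; adjusted p = 1.06e-08 by edgeR). The SE and p at E18.5 and D2.5 came from a spread shared by names of like level, so they do not measure a name's own replicate spread. Under the other settings tried, 105 of 105 fold changes of the 7 names at E18.5 were above 0 and past the threshold.

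**Figure D2:**
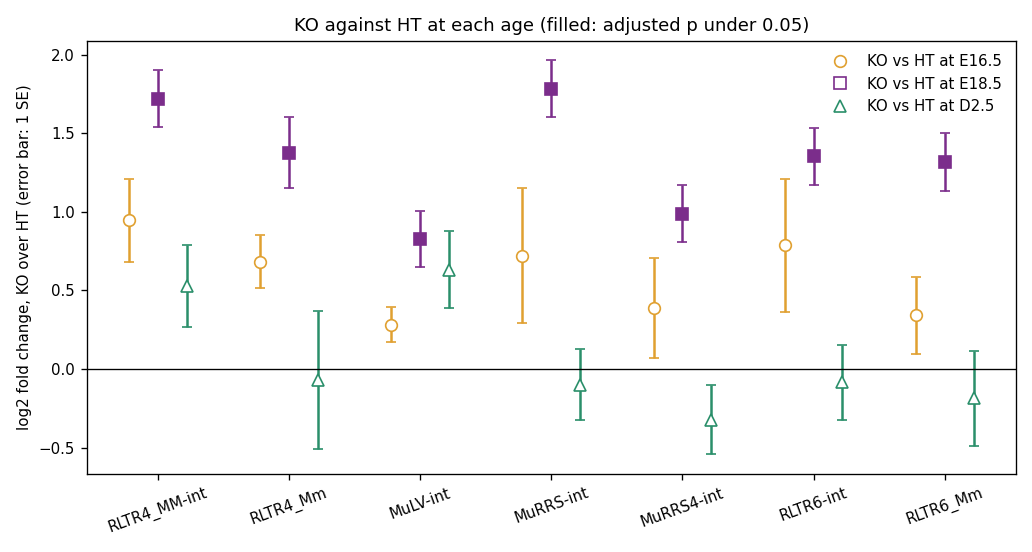
Log2 fold change of KO over HT cells (vertical axis, error bar 1 SE of the edgeR fit) for each of the 7 names (horizontal axis) at the 3 ages. Filled symbols passed an adjusted p of 0.05, which all 7 did at E18.5 and none did at the other ages.

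At the earlier age, E16.5, the 7 names had higher means in KO than in HT cells, but none passed the test. Log2 fold changes ran between 0.28 and 0.94 with a median of 0.68, against 0.14 over all 1090 names tested. No name of any kind passed at this age (0%; 67 had an unadjusted p under 0.05 by edgeR, and DESeq2 called 2 and limma-voom 0). In 3 of the 7 the KO libraries lay above the HT libraries, compared with 12.9% of the names tested.

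Those 3 were the murine leukaemia virus type names. RLTR4_MM-int was at 243, 246 and 314 CPM in KO libraries and at 85.9, 176 and 158 CPM in HT libraries, with a log2 fold change of 0.94 ± 0.26 (SE; adjusted p = 0.584 by edgeR). Its LTR RLTR4_Mm was at 17.97, 16.9 and 23.0 CPM in KO libraries, against 12.6, 12.5 and 11.2 CPM in HT libraries, with a log2 fold change of 0.68 ± 0.17 (SE; adjusted p = 0.584 by edgeR). In this LTR the HT libraries were close together, and HT replicate 1 was the highest of them. MuLV-int was at 141, 139 and 166 CPM in KO libraries and at 125, 115 and 130.0 CPM in HT libraries, a log2 fold change of 0.28 ± 0.11 (SE; adjusted p = 0.584 by edgeR).

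The retrovirus-related and VL30-type names were more spread at E16.5. MuRRS-int was at 272, 275 and 557 CPM in KO libraries, against 113, 233 and 328 CPM in HT libraries. RLTR6-int was at 438, 454 and 792 CPM in KO libraries and at 149.6, 365 and 468 CPM in HT libraries. In both names KO replicate 3 was the highest library, HT replicate 1 the lowest, and HT replicate 3 lay above the lower KO libraries. The log2 fold changes were 0.72 (95% interval -0.29 to 1.73) for MuRRS-int and 0.79 (-0.20 to 1.77) for RLTR6-int. MuRRS4-int (0.39, interval -0.35 to 1.13), RLTR6_Mm (0.34, interval -0.23 to 0.92) and MMVL30-int (0.35, interval -0.24 to 0.95) overlapped between the groups as well. Without HT replicate 1 the log2 fold change was 0.70 for RLTR4_MM-int, 0.72 for RLTR4_Mm, 0.30 for MuLV-int, 0.41 for MuRRS-int, 0.16 for MuRRS4-int, 0.45 for RLTR6-int and 0.17 for RLTR6_Mm. Without KO replicate 3 it was 0.81 for RLTR4_MM-int, 0.53 for RLTR4_Mm, 0.19 for MuLV-int, 0.28 for MuRRS-int, 0.075 for MuRRS4-int, 0.44 for RLTR6-int and 0.12 for RLTR6_Mm. With these libraries left out singly, the values of all 7 names were still above 0. The median over all names was 0.13 without HT replicate 1 and 0.080 without KO replicate 3. In the latter case MuRRS4-int lay below that median. With the replicate number as a block RLTR4_MM-int passed the test at E16.5 (log2 fold change 1.00, edgeR adjusted p = 0.0484), and with all 21 libraries in the fit it passed as well (0.93, edgeR adjusted p = 0.0164). Over all repeat names 39 passed with the block and 4 with all 21 libraries, against 0 in the main fit.

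**Figure D3:**
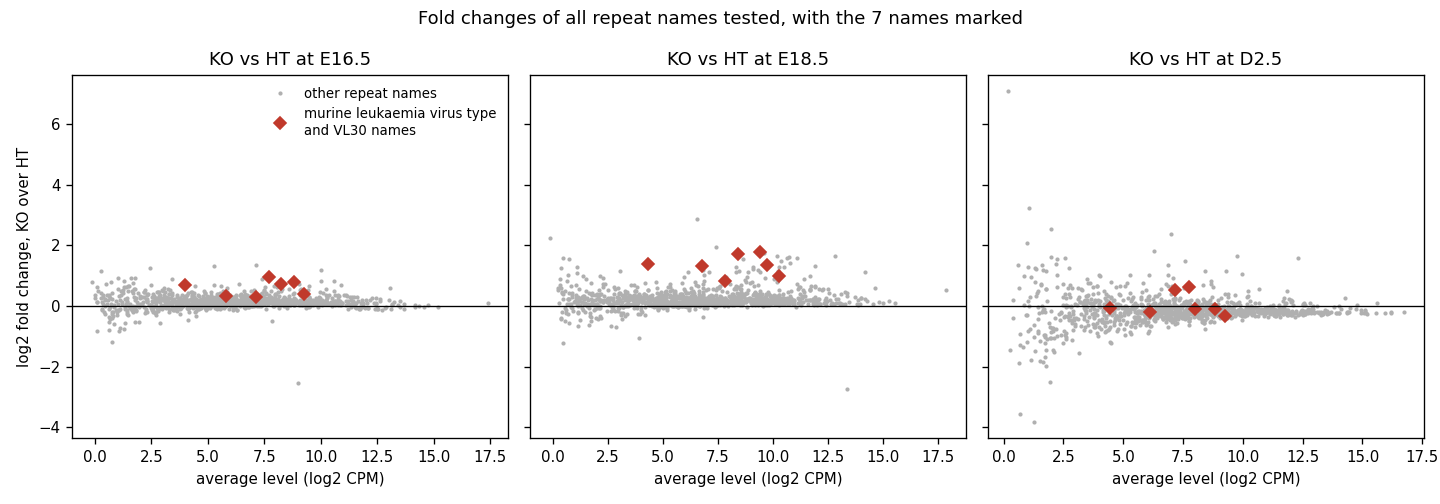
Log2 fold change of KO over HT cells (vertical axis) against the average level (horizontal axis, log2 CPM) for every repeat name tested at each age, with the 7 names as red diamonds. At E18.5 the red diamonds lie between 0.83 and 1.78, above the bulk of the names, whose median is 0.18, and at D2.5 between -0.32 and 0.63, around a median of -0.18.

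At D2.5 none of the 7 names passed the test between KO and HT cells, where 1.26% of 1110 names passed and 1.17% were higher in KO cells. The median log2 fold change of the 7 was -0.09, against -0.18 over all names. The names fell into a pair above 0, RLTR4_MM-int and MuLV-int, and 5 names slightly below it, with log2 fold changes of -0.32 to -0.07. The 95% intervals of those 5 were -0.93 to 0.79 for RLTR4_Mm, -0.54 to 0.34 for MuRRS-int, -0.75 to 0.11 for MuRRS4-int, -0.55 to 0.38 for RLTR6-int and -0.78 to 0.41 for RLTR6_Mm. Each upper bound lay below the lower bound of the same name at E18.5, which was 0.93 for RLTR4_Mm, 1.43 for MuRRS-int, 0.64 for MuRRS4-int, 1.00 for RLTR6-int and 0.95 for RLTR6_Mm.

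RLTR4_MM-int was at 194, 215 and 258 CPM in KO libraries, against 170.1, 147 and 146 CPM in HT libraries and 112, 106 and 144 CPM in WT libraries. Every KO library lay above all HT and all WT libraries. Groups without overlap and with KO above were found for 3.06% of the names against HT cells and for 4.86% against WT cells. The log2 fold change was 0.53 ± 0.26 (SE; adjusted p = 0.716 by edgeR) against HT cells and 0.88 ± 0.26 (SE; adjusted p = 0.0496 by edgeR) against WT cells, so that this was the 1 name of the 7 that passed against WT cells, where 1.44% of all names were higher. That call stood close to the threshold: the adjusted p was 0.0705 with limma-voom, 0.0608 without a filter and 0.0517 with a filter of 50 reads, and it was between 0.00854 and 0.361 when each library was left out in turn. With the replicate number as a block it was 0.0578.

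MuLV-int was at 198, 315 and 433 CPM in KO libraries, against 259.7, 197 and 157 CPM in HT libraries and 190.4, 226 and 275 CPM in WT libraries. The KO libraries were widely spread and overlapped both control groups. The log2 fold change was 0.63 ± 0.24 (SE; adjusted p = 0.329 by edgeR) against HT cells and 0.46 ± 0.24 (SE; adjusted p = 0.828 by edgeR) against WT cells. Leaving out KO replicate 3, the library that stood apart, gave 0.33 against HT cells, and leaving out KO replicate 1 gave 0.89 (edgeR adjusted p = 0.0118).

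MuRRS-int, with the highest fold change at E18.5, was at 469, 529 and 464 CPM in KO libraries of D2.5, against 487, 467 and 609 CPM in HT libraries and 523, 561 and 563 CPM in WT libraries. RLTR6-int was at 203, 307 and 356 CPM in KO libraries, against 278, 299 and 341 CPM in HT libraries and 323, 292 and 274 CPM in WT libraries. In both names the KO libraries overlapped the HT libraries, and the KO and HT means differed by less than the SD of either group. MuRRS4-int averaged 609 ± 222 CPM in KO cells, 760.2 ± 159.7 CPM in HT cells and 746 ± 41.2 CPM in WT cells (SD, n = 3 each). The LTR RLTR6_Mm averaged 77.8 ± 9.54 CPM in KO cells, 88.2 ± 14.3 CPM in HT cells and 74.1 ± 0.547 CPM in WT cells (SD, n = 3 each). The LTR RLTR4_Mm was at 16.6, 19.8 and 26.4 CPM in KO libraries, against 26.8, 21.8 and 17.5 CPM in HT libraries and 23.8, 20.05 and 49.1 CPM in WT libraries, where WT replicate 3 was the highest of the 9.

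Between HT and WT cells at D2.5 none of the 7 names passed the test, nor did any of the 1110 names (0%; 16 had an unadjusted p under 0.05 by edgeR, and DESeq2 and limma-voom called 0). Log2 fold changes of the 7 lay between -0.48 for RLTR4_Mm and 0.36 for RLTR4_MM-int. For RLTR4_MM-int the HT libraries were above the WT libraries without overlap, though narrowly, with a lowest HT value of 146 CPM and a highest WT value of 144 CPM. RLTR6_Mm also had its HT libraries above its WT libraries. Such a separation was found for 2.79% of the names.

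The difference between KO and HT cells was then compared between ages within a fit of the 18 KO and HT libraries. It was smaller at D2.5 than at E18.5 in 6 of the 7 names, against 1.75% of the 1144 names tested. MuRRS-int had the lowest difference of log2 fold changes, D2.5 minus E18.5, at -1.88 ± 0.35 (SE; adjusted p = 0.00452 by edgeR), and RLTR6_Mm came next at -1.50 ± 0.30 (SE; adjusted p = 0.00654 by edgeR). RLTR4_Mm had -1.45 (edgeR adjusted p = 0.0421), RLTR6-int -1.44 (edgeR adjusted p = 0.0318), MuRRS4-int -1.31 (edgeR adjusted p = 0.0338) and RLTR4_MM-int -1.20 (edgeR adjusted p = 0.0309). MuLV-int was the name that did not pass, with -0.20 (95% interval -0.80 to 0.40, edgeR adjusted p = 0.613). The median over all names was itself shifted, to -0.36, with the scaling on gene reads. The cause of that shift was not tested.

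When the scaling factors were taken from the repeat names in place of the genes, that median was 0.00 and none of the 7 names passed. RLTR4_MM-int was then at -0.84, RLTR4_Mm at -1.14, MuRRS-int at -1.48, MuRRS4-int at -0.97, RLTR6-int at -1.08 and RLTR6_Mm at -1.13, with edgeR adjusted p between 0.0589 and 0.229. With gene scaling, the count of passing names among the 7 was 1 without HT replicate 2 of E18.5. It was 2 without KO replicate 1 or HT replicate 3 of E18.5 or without KO replicate 1 or 2 of D2.5. It was 3 without KO replicate 3 of E18.5 or HT replicate 2 of D2.5. Over all names the count ran from 3, without HT replicate 2 of E18.5, to 58, without HT replicate 1 of D2.5, against 20.

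Between E18.5 and E16.5 the difference of the KO effect was above 0 for all 7 names, between 0.56 for MuLV-int and 1.08 for MuRRS-int, and none passed. Of all names 2 passed (0.175%). Without HT replicate 1 of E16.5 the count among the 7 was 3, without KO replicate 3 of E16.5 it was 1, and with the replicate number as a block it was 2. Over all names the count ran from 0 to 13 with single libraries left out, and was 13 without HT replicate 1 of E16.5. The ages were deposited in separate tables, so that age and table cannot be told apart in levels set across them.

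Summed over the 7 names, KO libraries held 1735, 1726 and 2876 CPM at E16.5, 4152, 3741 and 4066 CPM at E18.5, and 1546, 2054 and 2463 CPM at D2.5. HT libraries held 865, 1468 and 1877 CPM at E16.5, 1739, 1498 and 1638 CPM at E18.5, and 1919, 1967 and 2281 CPM at D2.5, and WT libraries 2033, 1984 and 2128 CPM. KO cells of E18.5 were thus above every other group, and the 3 groups of D2.5 overlapped. As reads per 1000000 repeat reads of each library (RPM), the sums were 3309.6 to 3558 in KO cells and 1586 to 1819.7 in HT cells at E18.5, and 879.6 to 1010.5 in KO cells, 809 to 952 in HT cells and 839 to 1021 in WT cells at D2.5.

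Within KO cells the median log2 change of the 7 names was 0.82 from E16.5 to E18.5 and -0.80 from E18.5 to D2.5, against medians of 0.44 and 1.00 over all names. Within HT cells it was 0.08 and 0.65, against 0.34 and 1.36 over all names. Scaled to repeat names, the change from E18.5 to D2.5 was -1.76 in KO cells and -0.69 in HT cells. With that scaling each of the 7 names had a negative value in both genotypes, of which RLTR6-int had the lowest, at -2.80 in KO cells and -1.72 in HT cells. Against gene reads MuLV-int had 0.44 in KO cells and 0.65 in HT cells, and RLTR6-int -1.78 and -0.34.

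The makeup of the 7 names' reads also differed between the groups. RLTR4_MM-int took 10.7% ± 1.09 of them in KO cells and 7.97% ± 0.276 in HT cells at E18.5 (SD, n = 3 each), and 11.1% ± 1.19 in KO cells, 7.57% ± 1.24 in HT cells and 5.88% ± 0.777 in WT cells at D2.5 (SD, n = 3 each). MuRRS-int took 21.3% ± 0.634 in KO cells and 15.1% ± 0.212 in HT cells at E18.5, and 25.0% ± 5.78 in KO cells, 25.3% ± 1.49 in HT cells and 26.8% ± 1.31 in WT cells at D2.5 (SD, n = 3 each). MuRRS4-int took 33.5% ± 0.994 in KO cells and 41.2% ± 1.01 in HT cells at E18.5 (SD, n = 3 each). RLTR6-int took 24.8% to 25.2% in KO cells and 23.4% to 24.9% in HT cells at E18.5, and 13.1% to 14.9% in KO cells, 14.5% to 15.2% in HT cells and 12.9% to 15.9% in WT cells at D2.5. Such shares are bound to sum to the whole, so a higher share of one name lowers those of the others.

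The family tables gave a second readout of the same libraries. ERV1 is the family that holds the murine leukaemia virus type elements, and the tables count alignments rather than reads, so one read can count many times. ERV1 had 786462, 815814 and 1037423 alignments in KO libraries and 357948, 583571 and 508237 in HT libraries at E16.5. At E18.5 it had 1364261, 1267195 and 1391800 alignments in KO libraries, against 358928, 458425 and 494262 in HT libraries. At D2.5 it had 706388, 613060 and 639172 alignments in KO libraries, against 211662, 309623 and 263937 in HT libraries and 257967, 220499 and 275819 in WT libraries. The KO libraries lay above all control libraries at each age, including D2.5, where 5 of the 7 names had log2 fold changes below 0. These counts were not scaled, and the totals over all families were also higher in every KO library at each age. At E16.5 the totals were 336193226 to 479309392 in KO libraries and 259342436 to 272454786 in HT libraries. At D2.5 they were 919879490 to 1254023075 in KO, 335343769 to 431076823 in HT and 299646966 to 425397351 in WT libraries.

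Scaled to gene reads, the log2 fold change of ERV1 was 0.82 at E16.5 ± 0.18 (SE; adjusted p = 0.00629 by edgeR), 1.77 at E18.5 ± 0.16 (SE; adjusted p = 5.47e-21 by edgeR) and 1.45 at D2.5 ± 0.20 (SE; adjusted p = 1.16e-10 by edgeR) against HT cells. At each age 7.69% of the 52 families tested were higher. Against WT cells it was 1.43 ± 0.20 (SE; adjusted p = 2.10e-10 by edgeR), and between HT and WT cells -0.02 ± 0.20 (SE; adjusted p = 1.00 by edgeR). The difference at E18.5 was above that at E16.5, as for 3.85% of families, by 0.96 ± 0.23 (SE; adjusted p = 0.00305 by edgeR), and that of D2.5 minus that of E18.5 was -0.32 (95% interval -0.78 to 0.15, edgeR adjusted p = 0.382). The SE and p of ERV1 within E18.5 and within D2.5 came from a spread shared by families, so they do not measure ERV1's own replicate spread. The fold changes of ERV1 depended on the scaling. This was because the family totals themselves were 805340492 to 1118719468 in KO libraries and 250719898 to 328764886 in HT libraries at E18.5. Scaled to family totals, ERV1 had 0.34 at E16.5 (edgeR adjusted p = 0.344), -0.01 at E18.5, -0.07 at D2.5 and -0.22 against WT cells. Without KO replicate 2 the adjusted p at E16.5 was 0.0789.

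**Figure D4:**
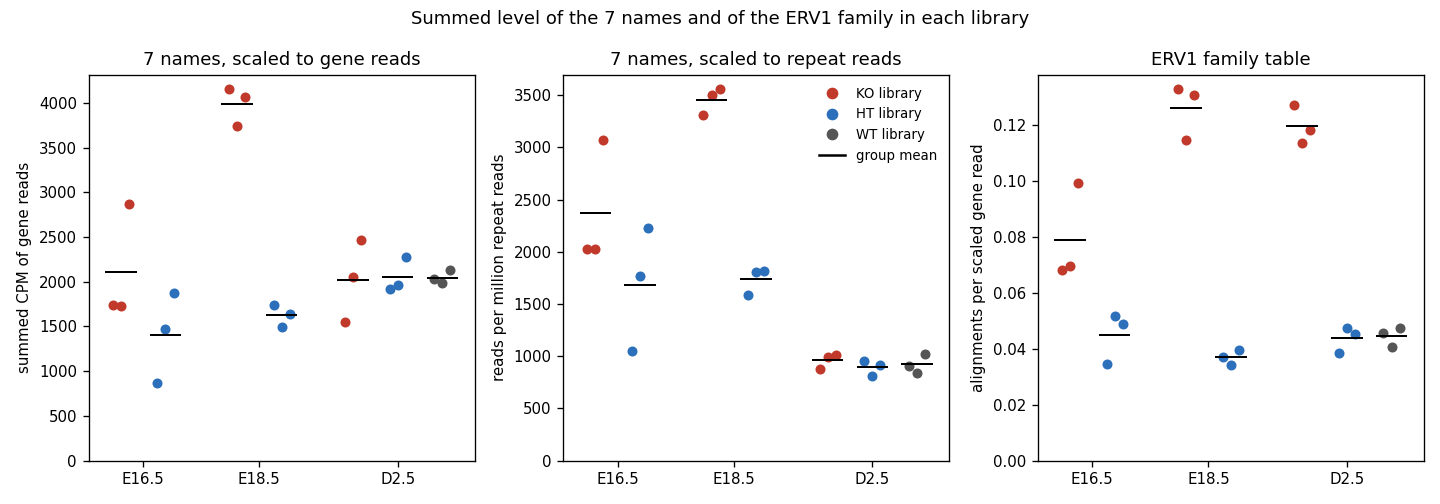
Summed CPM of the 7 names (left), the same sum relative to the repeat reads (middle) and ERV1 family alignments per scaled gene read (right) in each library, by age, with horizontal lines at the group means. At D2.5 the KO libraries overlap the HT and WT libraries in the left and middle panels, on the left with 1 KO library below and 1 above all control libraries, and lie above them in the right panel, at 0.114 to 0.127 against 0.0384 to 0.0472 in HT libraries.

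Over the 21 libraries, with each age centred on its own mean, the levels of the 7 names moved together to differing degrees. The centring left the difference between KO and HT cells within each age in place, so that difference entered every r. Pearson's r between pairs of names was highest for MuRRS-int and RLTR6-int, at 0.947, and lowest for MuLV-int and MuRRS4-int, at 0.490. RLTR4_MM-int and its LTR had an r of 0.679, and RLTR6-int and its LTR 0.869. These pairs share libraries and depth, and the way reads that fit several copies were assigned is not given in the sources used here, so reads of near-identical copies may be divided between names.

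Of 928 other repeat names with a mean of at least 10 CPM, the 5 most like the mean of the 7 names were RLTR10-int (r = 0.960), IAPEY3-int (0.955), ETnERV-int (0.952), the LTR RLTR10 (0.939) and RLTR45-int (0.929), all LTR retrotransposons, over 21 libraries. RLTR10-int averaged 2081 CPM in KO cells and 681 CPM in HT cells at E18.5, and 878 CPM in KO cells, 795 CPM in HT cells and 808 CPM in WT cells at D2.5. IAPEY3-int averaged 1429.8 CPM in KO cells and 454 CPM in HT cells at E18.5, and 428 CPM in KO cells, 389 CPM in HT cells and 366 CPM in WT cells at D2.5. Of 9855 gene rows the most alike were Magi3 (r = 0.878), Prom1 (0.831), Pitpnc1 (0.813), Mrc1 (0.799) and Slc4a4 (0.789). Prom1 averaged 53.4 CPM in KO cells and 7.74 CPM in HT cells at E18.5. These r also carried the difference between genotypes, so names and genes that rose in KO cells at E18.5 were favoured.

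Host genes known to act on such elements were tested together with all other genes. Of 20 genes that silence murine leukaemia virus and related elements through chromatin, 1 rose at E18.5 in KO cells, where 2.07% of 18199 genes rose and 0.0659% fell. It was Cbx5, which encodes heterochromatin protein 1 alpha, at 421 ± 58.1 CPM in KO cells and 278 ± 22.6 CPM in HT cells (SD, n = 3 each), with a log2 fold change of 0.60 ± 0.15 (SE; adjusted p = 0.0490 by edgeR). This call was lost with RLE factors (adjusted p = 0.0501) and when each library was left out in turn (0.0659 to 0.207). Trim28 had a log2 fold change of -0.26 (edgeR adjusted p = 0.764) and Setdb1 of 0.16 (edgeR adjusted p = 0.901). The median of the list was 0.03, against 0.00 over all genes. None of the 20 passed at E16.5 (0% of genes higher and 0.00618% lower) or between KO and HT cells at D2.5 (0.146% higher and 0.00696% lower). Against WT cells at D2.5, where 0.195% of genes were higher and 0.0209% lower, Suv39h2, a histone H3 lysine 9 methyltransferase, rose to 339 ± 20.3 CPM in KO cells, against 169 ± 28.8 CPM in WT cells (SD, n = 3 each), with a log2 fold change of 1.01 ± 0.19 (SE; adjusted p = 0.0174 by edgeR). Its adjusted p ran to 0.149 when single libraries were left out.

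Of 24 genes of the PIWI-interacting RNA pathway and of DNA methylation, 1 fell at E18.5. Gtsf1, a zinc finger protein that works with PIWI proteins, was at 44.5 ± 4.81 CPM in KO cells and 98.7 ± 9.15 CPM in HT cells (SD, n = 3 each), with a log2 fold change of -1.15 ± 0.15 (SE; adjusted p = 5.54e-04 by edgeR). Piwil4, the nuclear PIWI protein of fetal germ cells, had a log2 fold change of -0.07 (edgeR adjusted p = 0.992), and Dnmt3l, the cofactor of de novo methylation, of -0.08 (edgeR adjusted p = 0.983). None of the 24 passed at E16.5 or D2.5. Of 16 tested genes for entry receptors and restriction factors none passed at E18.5, among them Slc7a1, the receptor of ecotropic murine leukaemia virus (log2 fold change 0.02, edgeR adjusted p = 0.997), and Xpr1, the receptor of xenotropic and polytropic viruses (-0.05, edgeR adjusted p = 0.987). None of this list passed at E16.5 or D2.5.

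Of 10 germ cell markers 6 were detected in every library, among them Ddx4 at 261 CPM or more, Mael at 386 CPM or more and Tdrd1 at 631 CPM or more. The other 4 were at 0 in some of the 21 libraries, Pou5f1 in 2, Dppa3 in 2, Nanos2 in 1 and Nanos3 in 4. At E18.5 the germ cell marker Pou5f1, whose promoter such reporters carry, fell to 56.3 ± 14.1 CPM in KO cells, against 98.7 ± 10.8 CPM in HT cells (SD, n = 3 each), with a log2 fold change of -0.81 (edgeR adjusted p = 0.0307). Summed over 10 macrophage and blood markers, KO libraries of E18.5 held 74.6 to 97.3 CPM and HT libraries 42.9 to 47.9 CPM. Of the 7 tested, 2 rose: Mrc1, also among the genes most like the 7 repeat names, was at 51.0 ± 4.53 CPM in KO cells and 14.4 ± 2.88 CPM in HT cells, and Adgre1 at 8.40 ± 2.10 CPM in KO cells and 3.11 ± 0.160 CPM in HT cells (SD, n = 3 each). Most of the difference between the summed levels thus came from Mrc1, and the other tested markers of this list did not pass. The globin genes Hba-a1 and Hbb-bt were at 0 in all 21 libraries, and the leukocyte gene Ptprc was between 0 and 4.04 CPM. Of 7 endothelial markers Tek rose, with summed levels of 165 to 238 CPM in KO libraries and 173 to 187 CPM in HT libraries. None of the Sertoli, Leydig or stromal markers passed at E18.5. At E16.5 the macrophage and blood markers summed to 33.0 to 69.8 CPM in KO libraries and 15.3 to 40.2 CPM in HT libraries. HT replicate 1 of that age had the highest germ cell sum, at 8219 CPM. Its Sertoli and stromal sums were the lowest, at 19.2 and 30.4 CPM. KO replicate 3 of that age had the lowest germ cell sum, at 4203 CPM. Its Sertoli and stromal sums were the highest, at 84.2 and 131 CPM. At D2.5 the stromal markers summed to 329 to 809 CPM in KO libraries, 211 to 319.8 CPM in HT libraries and 191 to 489.8 CPM in WT libraries. The Sertoli markers of D2.5 summed to 87.9 to 269 CPM in KO, 65.8 to 102 CPM in HT and 50.9 to 162 CPM in WT libraries. KO replicate 3 had the highest of these Sertoli sums. No marker of any list passed at E16.5 or D2.5. The part of other cell types in the results on the 7 names was not tested.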

How the data were processed

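Total RNA of sorted germ cells was isolated with a PicoPure kit and amplified and made into libraries with NuGEN Ovation kits, per the labels' protocols. Per the submitters' processing notes, mm9 was the genome, and edgeR, featureCounts, Bowtie and STAR were used. The role and version of each tool was not given in the sources used here, nor was the treatment of reads that fit several places. The authors deposited raw counts, in 3 tables of 24495 gene rows and 1217 repeat names and in 3 tables of 53 repeat families, 1 per age.

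Repeat names were kept if 3 or more libraries had 10 or more reads, and tested with edgeR 4.0.16 (R 4.3.3) by two-sided quasi-likelihood tests, on the library sizes and TMM factors that the gene rows gave (filterByExpr, minimum count 10 and minimum total 15). Benjamini-Hochberg adjustment ran over all names tested at a threshold of 0.05. Each age had its own fit, with 9 libraries at D2.5. How the KO effect differed between ages came from 1 fit of 18 libraries. The SE was the log2 fold change divided by the square root of F. CPM values used TMM factors over all 21 libraries. Likeness used log2(CPM + 0.5). DESeq2 1.42.0 and limma 3.58.1 (limma-voom) were other tests; figures used Python 3.11.15 with matplotlib 3.10.9. The fits were also run on counts simulated from a spread shared by names or genes of like level. These counts held no libraries that stood apart, so the runs cannot show how the tests behave with such libraries. Counting error alone limits names of few reads.

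The 7 names, the gene lists and the tests were chosen with earlier results of these data known. All 7 names are reported. From the gene lists up to 4 genes past the threshold and up to 2 others best known for the list's role are named, the latter chosen by name.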

Additional observations from a re-analysis of the deposited data

Results flagged for a closer look

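The KO effect differed between E18.5 and D2.5 in 6 names by the test of the difference itself, D2.5 minus E18.5 on the log2 scale. The values were -1.88 for MuRRS-int, -1.50 for RLTR6_Mm, -1.45 for RLTR4_Mm, -1.44 for RLTR6-int, -1.31 for MuRRS4-int and -1.20 for RLTR4_MM-int, beside a median of -0.36 over all names. None of them passed when the scaling factors came from repeat names. The KO effect on the ERV1 family was higher at E18.5 than at E16.5 by 0.96 on the log2 scale.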

How the results depend on the processing

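At E18.5 the count of 7 names was the same under each setting tried, while that of all names was 210 with the replicate number as a block and 65 with all 21 libraries in the fit, against 113, and 63 to 274 with single libraries left out. With the scaling of repeat names 120 names were higher and 27 lower at E18.5, against 111 and 2. At E16.5 the count among the 7 was 1 with the replicate block and 1 with all 21 libraries; all names then numbered 39 and 4, against 0, and 2 with DESeq2. Between KO and HT cells at D2.5 the 7 counted 0 to 1 with single libraries left out, and all names 37 with the scaling of repeat names and 26 with all 21 libraries, against 14. Between KO and WT cells the count of 1 was 0 with limma-voom, with the replicate block, with no filter and with a filter of 50 reads, and 0 to 1 with single libraries left out; it was lost without any 1 of KO replicates 2 and 3, HT replicates 2 and 3 and WT replicates 1, 2 and 3. All names there numbered 52 with the scaling of repeat names and 26 with all 21 libraries, against 16. For the difference E18.5 minus E16.5 the count of 0 was 2 with the replicate block and 0 to 3 with libraries left out. All names there numbered 0 to 13 with libraries left out, against 2. For D2.5 minus E18.5 the count of 6 was 0 with the scaling of repeat names and 1 to 6 with libraries left out. All names numbered 3 with that scaling, 303 with the replicate block and 3 to 58 with libraries left out, against 20.

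Among the 7 names, the values whose sign turned lay near 0 under these settings. With the scaling of repeat names, KO against HT at D2.5 gave 0.049 for RLTR4_Mm, 0.096 for MuRRS-int and 0.063 for RLTR6-int; KO against WT gave 0.053 for RLTR6-int; HT against WT gave -0.045 for MuRRS4-int and -0.011 for RLTR6-int; and D2.5 minus E18.5 gave 0.096 for MuLV-int. With the replicate block HT against WT gave -0.017 for MuRRS4-int. With single libraries left out, KO against HT at D2.5 ran between -0.28 and 0.081 for RLTR4_Mm, -0.17 and 0.039 for MuRRS-int and -0.27 and 0.12 for RLTR6-int; KO against WT between -0.22 and 0.17 for RLTR6-int and -0.034 and 0.14 for RLTR6_Mm; HT against WT between -0.15 and 0.18 for MuRRS4-int and -0.041 and 0.13 for RLTR6-int; and D2.5 minus E18.5 between -0.46 and 0.043 for MuLV-int. ERV1 turned its sign from values far from 0 when scaled to family totals, except at E16.5. It gave -0.011 at E18.5, -0.071 at D2.5 and, against WT cells, -0.22, against 1.77, 1.45 and 1.43 scaled to gene reads. At E16.5 ERV1 stayed above 0, with 0.34 scaled to family totals and 0.82 scaled to gene reads. Scaled to gene reads, it ran between 0.61 and 0.93 at E16.5 with libraries left out. The cause of these changes was not tested, beyond the scaling itself.

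Samples with the same replicate number deviated together by correlations of -0.0928 to 0.772 at E16.5, 0.0941 to 0.231 at E18.5 and -0.0588 to 0.0324 at D2.5. At E16.5 the correlation was 0.609 for replicates 1, -0.0928 for replicates 2 and 0.772 for replicates 3. Between unlike numbers it ran from -0.721 to 0.535 at that age. The labels do not say that the numbers pair samples, so the main fits used no block. Whether samples of E16.5 were paired cannot be told from these values. The lists of gene calls were tried under other settings added after seeing the data: the silencing list had 0 calls with RLE factors at E18.5 and 1 with limma-voom and with DESeq2 between KO and HT cells at D2.5, and the receptor list 1 with DESeq2 against WT cells.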
